A study of Macaca mulatta with 56 samples.

Results

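Oligodendrocyte precursor cells are the dividing glia of the adult brain that give rise to the myelin-forming oligodendrocytes. PDGFRA is the receptor through which platelet-derived growth factor keeps these cells dividing, and CSPG4 encodes the surface proteoglycan NG2 by which they are often recognised. OLIG1, OLIG2 and SOX10 are transcription factors that set the lineage and stay on in its myelinating cells, and GPR17 is a G protein-coupled receptor that marks the stage between precursor and oligodendrocyte. Outside the lineage, NG2 is also made by pericytes and PDGFRA by fibroblasts of the meninges and vessel walls.

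These 6 genes were followed by symbol in the brains of old female rhesus macaques. Of the 6, 5 had a row among the 17807 Ensembl macaque identifiers: PDGFRA (ENSMMUG00000017395), CSPG4 (ENSMMUG00000016104), OLIG2 (ENSMMUG00000017652), SOX10 (ENSMMUG00000052236) and GPR17 (ENSMMUG00000004180). OLIG1 could not be matched to a row by name and is not analysed here. The amygdala columns were used for all 5. A row was used in the other regions only where its mean log2(value + 1) there lay within 2 of its amygdala mean, because the amygdala columns and the other columns do not hold the same transcript under every identifier. That rule kept 4 of the 5 genes and 13520 identifiers in all (75.9%). The gap between the other regions and the amygdala was 1.41 for PDGFRA, the member nearest the limit inside it, 0.31 for GPR17, 0.24 for OLIG2 and -0.57 for SOX10. It was -4.69 for CSPG4, which lay outside the limit and is described in the amygdala alone.

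The study asked how estradiol acts on the brain transcriptome under an obesogenic diet. All 14 animals, aged 19.4 to 23.2 years, ate a Western-style diet in which fat gave 36% and sugars 18.5% of the calories (chow: 13% and 6%), and were ovariectomized and hysterectomized about 6 weeks after it began. The 7 HT animals carried estradiol capsules (mean serum estradiol 82.1 pg/mL), and the 7 OvH animals carried empty ones (6.6 pg/mL), over a study of 30 months. Pieces of amygdala, hippocampus and the occipital and prefrontal cortices gave 56 stranded mRNA libraries. No animal kept its ovaries or ate chow, so the OvH group is a control for estradiol only. Each replicate is a separate animal, with 1 library per region. The libraries are from whole tissue, so fewer cells of a type and less RNA per cell cannot be told apart.

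Values are upper-quartile normalized read counts, and every one corresponded to a whole number of reads within 0.01 read. Reads summed to between 34.6 and 93.3 mega-reads per library (median 59.9). Normalized totals in the amygdala were 71.1 ± 4.46 mega-counts in HT and 61.4 ± 4.08 in OvH (SD, n = 7), and the means of the other groups ran from 58.5 to 62.0. In single members, animal 32 (OvH) or animal 40 (HT) stood apart in some regions, as given with the values.

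In the amygdala, the 5 precursor genes had lower mean levels in HT than in OvH, and none of the 5 differences passed the test across all identifiers (limma on log2(value + 1), Benjamini-Hochberg adjusted p under 0.05). There, 6.89% of 16129 identifiers passed, 6.16% higher in HT and 0.732% lower. At an unadjusted p under 0.05 the counts were 0 of 5 members and 21.5% of identifiers, and edgeR and DESeq2 on the recovered reads also called 0 of 5. The median of the 5 log2 differences was -0.24, beside 0.01 over all identifiers.

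PDGFRA, the growth factor receptor, ranged from 3016 to 4062 in OvH (median 3872) and from 2788 to 3846 in HT (median 3223) in the amygdala. No HT animal reached the OvH median, but the groups overlapped, with 6 of 7 HT animals above the lowest OvH animal, animal 32. Means were 3331 ± 352 in HT and 3764 ± 350 in OvH (SD, n = 7). The log2 difference was -0.18 (SE 0.11, 95% interval -0.40 to 0.05, limma adjusted p = 0.357).

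CSPG4, the NG2 proteoglycan, varied over a 4.76-fold range between amygdala libraries, the widest of the 5, on 85 to 768 reads per library. It ranged from 127 to 460 in OvH (median 322) and from 96.7 to 329 in HT (median 222). Only 1 of 7 HT animals was above the OvH median, and the ranges overlapped over most of their length. The log2 difference, -0.49 (SE 0.31, 95% interval -1.14 to 0.16, limma adjusted p = 0.386), was the one farthest from 0 and had the widest interval.

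OLIG2, which specifies the lineage, ranged from 1498 to 3547 in OvH (median 2046) and from 1333 to 3068 in HT (median 1791), a log2 difference of -0.21 (SE 0.21, limma adjusted p = 0.606). SOX10, which drives myelin genes, ranged from 1757 to 5496 in OvH (median 2383) and from 1360 to 3170 in HT (median 2114), a log2 difference of -0.29 (SE 0.25, limma adjusted p = 0.557). In both genes 2 of 7 HT animals were above the OvH median. Animal 32 was the highest of all 14 for both, and its SOX10 value of 5496 lay far above the next OvH animal at 2604.

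GPR17, the receptor of the intermediate stage, ranged from 164 to 509 in OvH (median 464) and from 184 to 429 in HT (median 330). No HT animal reached the OvH median, yet the lowest of all 14 animals was an OvH animal, again animal 32. The log2 difference was -0.24 (SE 0.27, 95% interval -0.80 to 0.32, limma adjusted p = 0.656).

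**Figure D1:**
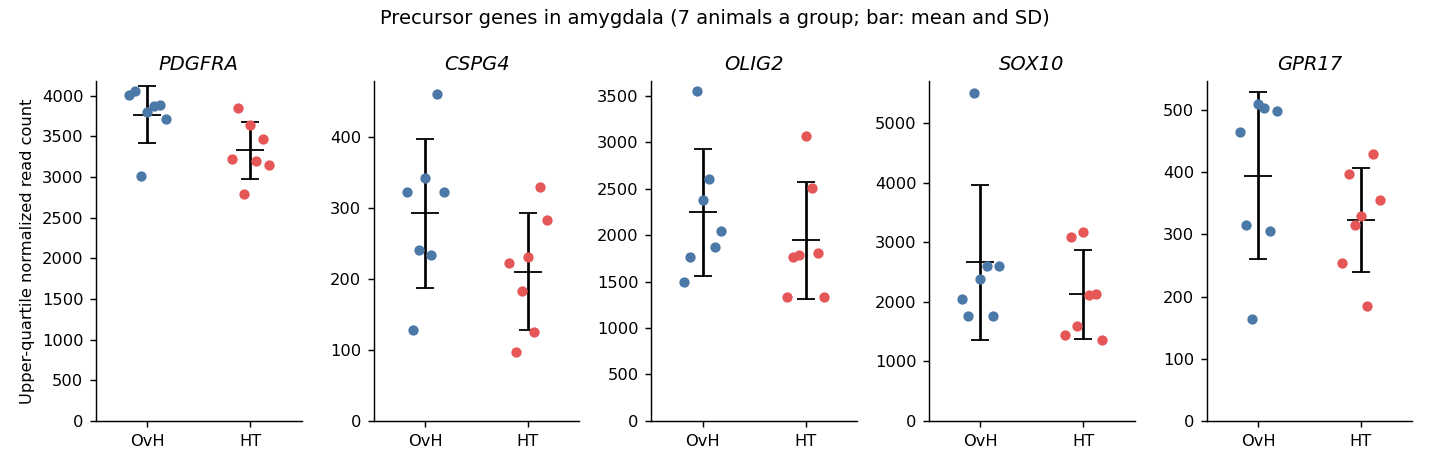
Upper-quartile normalized read count (vertical axes, from 0) of 5 precursor genes in the amygdala of 7 OvH and 7 HT animals; each point is an animal and the bar gives the mean and SD. The groups overlap in every panel, and the HT mean is the lower one in all 5, as for PDGFRA with 3331 against 3764.

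The 5 differences stayed below 0 under each of the 24 alternative settings run in the amygdala, and 2 of them passed the test under 1 setting each. PDGFRA did with array weights, which count less reliable libraries less (-0.26, limma adjusted p = 0.0388). SOX10 did with the mean of the myelin markers as a covariate (-0.77, limma adjusted p = 0.0227). With that covariate OLIG2 was at -0.51, PDGFRA at -0.18, CSPG4 at -0.16 and GPR17 at -0.12, and none of these passed. Of the 19 myelin rows, 18 had a difference above 0, and amygdala SOX10 ran with their mean (r = 0.897). The covariate therefore shifts the SOX10 difference downward and is not a separate check of it. Scaling the amygdala libraries to equal totals moved the median of all identifiers to -0.20 and PDGFRA to -0.39 (limma adjusted p = 0.0603). Leaving out 1 animal also moved these values. SOX10 went from -0.29 to -0.10 without animal 32, and GPR17 from -0.24 to -0.43 without animal 32 and to -0.11 without animal 40. OLIG2 went from -0.21 to -0.10 without animal 32, to -0.13 without animal 36 or 42 and to -0.33 without animal 39, and CSPG4 from -0.49 to -0.32 without animal 37.

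Other genes of the lineage did not move as one group in the amygdala. Of 19 other precursor markers, 1 passed the test, higher in HT, a share near the 6.16% of all identifiers, and the median log2 difference was -0.17. That gene was SCRG1, which encodes a small secreted protein, at 8890 ± 2297 in HT and 5198 ± 1495 in OvH (SD, n = 7), a log2 difference of 0.79 (SE 0.20, limma adjusted p = 0.0282). CHST11, a chondroitin sulfotransferase, had the next smallest p at -0.50 (limma adjusted p = 0.0548). PTPRZ1, a receptor phosphatase that carries chondroitin sulfate, had a log2 difference of 0.28 (limma adjusted p = 0.217). Of the 19 differences, 7 were above 0 and 12 below. The summed level of these 19 markers ran from 53323 to 63920 in HT and from 47376 to 57153 in OvH. That sum is weighted to abundant rows, as PTPRZ1 alone had a mean of 21754 in HT and 18006 in OvH.

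Of the 15 measured genes of committed and newly formed oligodendrocytes, 1 rose and 0 fell, a share near the 6.16% of all identifiers, with 9 differences above 0, 6 below and a median of 0.10. The gene that rose was BCAS1, a marker of oligodendrocytes that have just begun to form myelin, at 30828 ± 7386 in HT and 13232 ± 6400 in OvH (SD, n = 7), a log2 difference of 1.34 (SE 0.27, limma adjusted p = 0.00854). BCAS1 passed under all 24 alternative settings, from 1.01 to 1.52, and SCRG1 under 14 of 24. Of the 19 rows of mature oligodendrocyte and myelin markers, 3 rose, beside 6.16% of all identifiers, 0 fell, and 18 had a difference above 0 (median 0.41). The 3 were MBP, GJB1 and 1 row of MOBP (1.46, limma adjusted p = 0.0185). The other MOBP row had a difference of 0.31 and did not pass (limma adjusted p = 0.643). Every one of the 19 rows had a mean of at least 10, and their summed level ran from 829658 to 1708580 in HT and from 395356 to 1360920 in OvH. What part this played in the values of the precursor genes was not tested beyond the covariate given above.

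Among the partners of the members, 0 of 19 genes for PDGF ligands and signalling passed in the amygdala, with a median of -0.12. This list also holds the member CSPG4. The smallest p values were those of PDGFB, a ligand chain made largely by endothelium and neurons, at -0.78 (limma adjusted p = 0.17), and of PIK3CA, a kinase subunit downstream of the receptor, at -0.68 (limma adjusted p = 0.186). Of 25 lineage transcription regulators, 0 passed, with a median of 0.01, and ZEB2, a regulator of myelination, had a difference of 0.36 (limma adjusted p = 0.196). The next list held genes of the leukotriene route, whose products are reported ligands of GPR17, and the nucleotide receptors P2RY1 and P2RY12. Of its 12 genes, 3 rose, beside 6.16% of all identifiers, and 0 fell, with a median of 0.17. These were MGST3 (0.95, limma adjusted p = 0.0101) and MGST2 (0.69, limma adjusted p = 0.0432), which are microsomal glutathione transferases, and CYSLTR2, a cysteinyl leukotriene receptor (1.31, limma adjusted p = 0.0138). MGST2 passed in 9 of the 24 alternative settings, MGST3 in 24 and CYSLTR2 in 23.

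Of 14 measured cell cycle genes, 1 rose, a share near the 6.16% of all identifiers. It was the mitotic checkpoint kinase BUB1B (0.77, limma adjusted p = 0.0471), which passed in 8 of the 24 alternative settings. Markers of other cells were counted in the same way. In each of 3 lists 1 gene rose and 0 fell, near the 6.89% of all identifiers called: S100B (1.05) of 12 astrocyte rows, AIF1 (1.06) of 11 microglial rows and HIGD1B (1.36) of 12 pericyte and smooth muscle rows. The medians of these lists were -0.03, 0.07 and -0.11. Of 14 neuronal rows, 0 rose and 2 fell, where 0.732% of all identifiers fell. The 2 were the synaptic genes SYP (-0.71) and DNM1 (-0.66), and the list median was -0.33. SYP passed in 13 and DNM1 in 12 of the 24 alternative settings, MBP in 14, and S100B, AIF1 and HIGD1B in 23 each. No gene passed among 11 fibroblast rows (median 0.39), 10 endothelial rows (median -0.29), 6 choroid plexus rows and 4 estrogen receptor rows. The summed pericyte level ran from 5099 to 12334 in HT and from 4725 to 9452 in OvH, and the summed fibroblast level from 70518 to 367445 and from 66590 to 149779. The part of these cells in the values of CSPG4 and PDGFRA was not tested. The counts and sums include CSPG4 itself in the pericyte list and PDGFRA itself in the fibroblast list.

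Outside the amygdala, whether the rows carry the named genes was checked by how they varied between animals, as correlations with the mean of a marker list over the 14 animals after the treatment means were taken out (85 correlations, permutation p, Benjamini-Hochberg adjusted over them). By Pearson's r, 11 of the 85 passed, and by Spearman's rho 0 of 85 did. OLIG2 followed the myelin markers outside the amygdala, at r = 0.831 (hippocampus, permutation p = 0.00276, adjusted 0.0335), 0.80 (occipital cortex, permutation p = 0.0042, adjusted 0.0397) and 0.922 (prefrontal cortex). In the prefrontal cortex the permutation p was 0.00013 (adjusted 0.00425), rho was 0.851 (permutation p = 0.0014, adjusted 0.0595), and r was 0.83 without the 2 animals farthest from the median. Its r was above 0 with 15 of 15 myelin rows in each of these 3 regions. In the amygdala the correlation of OLIG2 with the myelin markers did not pass (r = 0.676, permutation p = 0.0127, adjusted 0.0801; rho 0.613, permutation p = 0.0273, adjusted 0.158; r = 0.404 without the 2 farthest animals). There OLIG2 followed the neuronal markers, with r = 0.732 (permutation p = 0.00589, adjusted 0.0455; rho 0.745, permutation p = 0.00527, adjusted 0.064; r = 0.678 without the 2 farthest animals). It also ran against the mean of the other precursor markers, with r = -0.771 (permutation p = 0.00262, adjusted 0.0335). Its rho with that mean was -0.626 (permutation p = 0.0237, adjusted 0.155), and r was -0.646 without the 2 farthest animals. By single rows its r was above 0 with 8 of 19 of these markers (median -0.27) and with 18 of 19 myelin rows (median 0.55). The amygdala columns are used as named, and these correlations did not establish the identity of the OLIG2 row there.

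PDGFRA followed the mean of the other precursor markers in hippocampus (r = 0.869, permutation p = 0.00021, adjusted 0.00446, and 0.80 without the 2 farthest animals) and prefrontal cortex (r = 0.93). Its r with them did not pass in the amygdala (0.469, permutation p = 0.102, adjusted 0.377) or the occipital cortex (0.591, permutation p = 0.0348, adjusted 0.174). The prefrontal value had a permutation p of 9e-05 (adjusted 0.00425), a rho of 0.763 (permutation p = 0.00479, adjusted 0.064) and an r of 0.777 without the 2 farthest animals. Not all single markers went this way. PDGFRA had an r above 0 with 10 of 16 in hippocampus (median 0.17) and 11 of 16 in prefrontal cortex (median 0.47). In the hippocampus PDGFRA went against the myelin markers, with r = -0.688 (permutation p = 0.00481, adjusted 0.0409; rho -0.688, permutation p = 0.00944, adjusted 0.0729; r = -0.463 without the 2 farthest animals). In the prefrontal cortex GPR17 had an r above 0 with 11 of 16 other precursor markers (median 0.44). With their mean it passed the threshold there alone among the 4 regions, at r = 0.787. This had a permutation p of 0.00356 (adjusted 0.0378), a rho of 0.714 (permutation p = 0.00734, adjusted 0.0728) and an r of 0.31 without the 2 farthest animals, on which it therefore rests. Its r was 0.692 in the amygdala (permutation p = 0.0132, adjusted 0.0801, and 0.052 without the 2 farthest animals), 0.689 in hippocampus (permutation p = 0.00895, adjusted 0.0634) and 0.646 in occipital cortex (permutation p = 0.019, adjusted 0.108).

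SOX10 behaved differently by region. In the amygdala it followed the myelin markers, with r = 0.897 (permutation p = 0.00015, adjusted 0.00425; rho 0.771, permutation p = 0.00292, adjusted 0.0639; r = 0.827 without the 2 farthest animals) and an r above 0 with 19 of 19 rows. Outside it, the row of the same identifier gave r = -0.363 (hippocampus), 0.072 (occipital) and -0.428 (prefrontal) with these markers. In the hippocampus that row followed the neuronal markers instead, with r = 0.774 (permutation p = 0.00113, adjusted 0.0192; rho 0.829, permutation p = 0.00082, adjusted 0.0595; r = 0.764 without the 2 farthest animals). SOX10 is a glial gene, so in these 3 regions the row did not follow the lineage its name stands for, and its values are given below as those of the row named SOX10. The check also did not establish the identity of PDGFRA in occipital cortex, or of GPR17 in hippocampus and occipital cortex. Their correlations with the other precursor markers did not pass there. The prefrontal one of GPR17 rests on 2 animals. PDGFRA passed with these markers in hippocampus and prefrontal cortex, but single rows of other cell types also ran with it there. COL1A2 of the fibroblast list had r = 0.731 and 0.907, and the neuronal SYT1 had 0.802 and 0.661. These were the highest of their lists, whose means did not pass. The check therefore does not settle the identity of PDGFRA there either. All these rows are called below by their symbols.

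**Figure D2:**
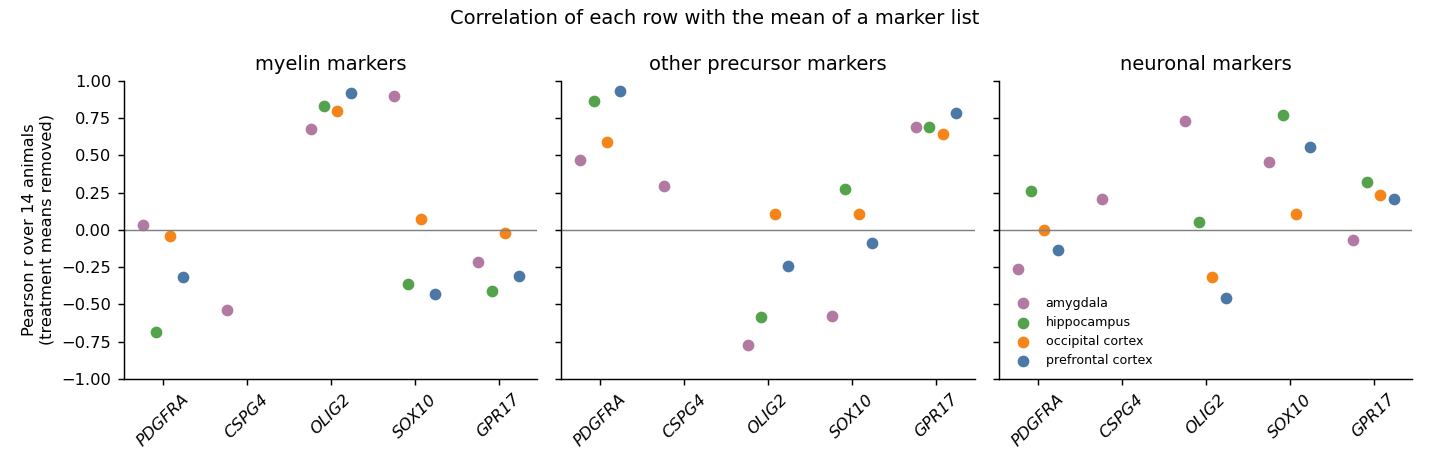
Pearson's r over 14 animals (vertical axis, treatment means removed) between each row and the mean of the myelin, other precursor and neuronal marker lists, with 1 colour per region; CSPG4 has an amygdala point only. With the myelin markers OLIG2 is at 0.80 to 0.922 outside the amygdala and at 0.676 in it, below its 0.732 with the neuronal markers there, and the row named SOX10 is at 0.897 in amygdala and between -0.428 and 0.072 elsewhere.

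For CSPG4 in the amygdala, no correlation with a list passed. Its values were r = 0.453 (permutation p = 0.122, adjusted 0.399) and rho = 0.705 (permutation p = 0.00856, adjusted 0.0728) with the pericyte list, r = 0.671 without the 2 farthest animals, and r = 0.292 (permutation p = 0.324, adjusted 0.689) with the other precursor markers. PDGFRA had r = -0.09 in the amygdala with the fibroblast list (permutation p = 0.776, adjusted 0.955).

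In hippocampus, occipital cortex and prefrontal cortex, HT and OvH did not differ past the threshold in any of the 12 comparisons of a member row, and in each of these regions 0% of identifiers passed (limma, of 16317, 16138 and 16286 tested). At an unadjusted p under 0.05, 1 of the 12 stood beside 2.05%, 1.88% and 3.7% of identifiers. edgeR and DESeq2 on the recovered reads called none of the 12. Of the 12 log2 differences, 10 were above 0, with medians of 0.20, 0.19 and 0.13 in the order of regions above.

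PDGFRA in the hippocampus ran from 8136 to 14352 in OvH (median 11945) and from 7132 to 13974 in HT (median 11951), which is a log2 difference of 0.01 (SE 0.17). In the occipital cortex it ran from 5578 to 7554 in OvH (median 6776) and from 6515 to 8448 in HT (median 7555), and 4 of 7 HT animals were above every OvH animal. The log2 difference there was 0.17 (SE 0.11, 95% interval -0.06 to 0.39, limma adjusted p = 0.999). In the prefrontal cortex it ran from 5676 to 11626 in OvH (median 10762) and from 7725 to 13627 in HT (median 12464), with a log2 difference of 0.21 (SE 0.16, limma adjusted p = 1). The lowest prefrontal values in the groups were those of animals 32 and 40.

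OLIG2 in the hippocampus ran from 1227 to 3567 in OvH (median 2503) and from 2592 to 4343 in HT (median 2921). All 7 HT animals were above the OvH median, though the groups overlapped and 1 HT animal, animal 40, was above every OvH animal. The log2 difference was 0.38 (SE 0.24, 95% interval -0.13 to 0.89, limma adjusted p = 1). It was 0.03 without animals 30 and 43, the 2 lowest OvH animals, 0.10 with array weights and -0.01 with the mean of the myelin markers as a covariate. In the occipital cortex the range was 1693 to 3374 in OvH and 2452 to 3076 in HT (0.21, SE 0.15), again with 7 of 7 HT animals above the OvH median. In the prefrontal cortex it was 1366 to 3432 and 1672 to 2376 (0.05, SE 0.18).

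GPR17 in the hippocampus ran from 199 to 633 in OvH (median 563) and from 356 to 921 in HT (median 740). Of the HT animals 4 of 7 were above every OvH animal and the rest lay within the OvH range, with a log2 difference of 0.39 (SE 0.29, 95% interval -0.22 to 0.99, limma adjusted p = 1), which was 0.18 without animal 32. Its differences were 0.07 (SE 0.28) in occipital cortex and -0.07 (SE 0.34) in prefrontal cortex, where the lowest HT value, 171, and the lowest OvH value, 187, were close to each other.

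The row named SOX10 gave -0.05 (hippocampus, SE 0.26), 0.29 (occipital cortex, SE 0.22) and 0.32 (prefrontal cortex, SE 0.14). In the prefrontal cortex it ran from 843 to 1379 in OvH (median 1074) and from 1115 to 1748 in HT (median 1293). All 7 HT animals were above the OvH median and 3 above every OvH animal. The unadjusted p of 0.0401 from limma did not pass after adjustment (1).

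**Figure D3:**
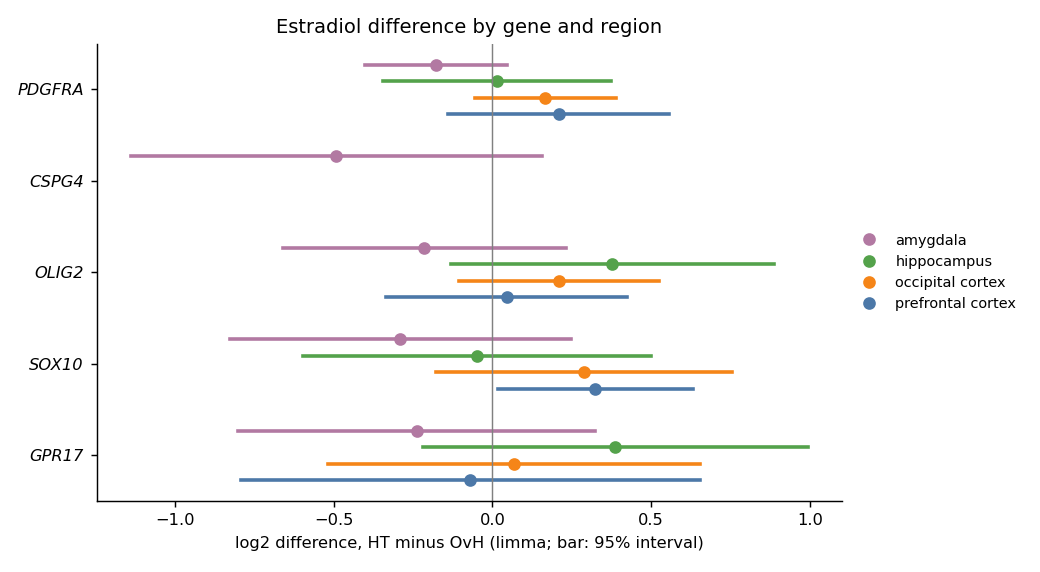
Log2 difference of HT minus OvH (horizontal axis) for each gene and region, with its 95% interval from limma, 7 animals a group; the values named SOX10 outside the amygdala are those of that row. The 5 amygdala points lie below 0, the lowest being CSPG4 at -0.49. Of the 12 others, 10 lie above 0, and these 12 are not independent, since they share the same animals.

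When each animal entered once with its mean over hippocampus and both cortices, the log2 differences were 0.13 for PDGFRA (SE 0.11), 0.21 for OLIG2 (SE 0.16), 0.19 for the row named SOX10 (SE 0.12) and 0.13 for GPR17 (SE 0.26). None passed, as with all 16354 identifiers tested (0% called and 3.16% at an unadjusted p under 0.05), and the limma adjusted p was 1 for all 4. The effect of HT did not differ between the 3 regions past the threshold for any of them (limma F test, adjusted p = 1, 0% called and 1.12% unadjusted).

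The difference between the amygdala effect and the mean effect in the other regions of the same animals was also tested, a comparison added after the values were seen. It was -0.31 for PDGFRA (95% interval -0.57 to -0.04, limma adjusted p = 0.16), -0.43 for OLIG2 (95% interval -0.84 to -0.01, limma adjusted p = 0.21), -0.48 for the identifier of SOX10 (SE 0.26, limma adjusted p = 0.286), whose row elsewhere did not follow amygdala SOX10, and -0.37 for GPR17 (SE 0.18, limma adjusted p = 0.222). None passed, and 0% of 13468 identifiers did. At an unadjusted p under 0.05 the shares were 2 of 4 rows and 22.9% of identifiers, with limma alone run here.

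No list of lineage genes held a called gene in the other regions. In the hippocampus 13 of 16 other precursor markers had a difference above 0 (median 0.25), as did 15 of 15 myelin rows (median 0.47), beside 53.3% of all identifiers. Rows of a list share the same animals and are not independent. The summed myelin level in the hippocampus ran from 400544 to 749678 in HT and from 176490 to 569379 in OvH. The smallest p values among the other precursor markers there were those of PCDH15, a protocadherin (0.53), and PTPRZ1 (0.37), both with a limma adjusted p of 1. PTPRZ1 had a difference above 0 in all 4 regions, which were 0.28 (amygdala), 0.37 (hippocampus), 0.28 (occipital) and 0.24 (prefrontal). Its average over the last 3 was 0.29 (SE 0.07, 95% interval 0.14 to 0.45, limma adjusted p = 1).

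More contrasts of member rows passed between regions than between treatments, but the tests are unlike. Regions are compared within 14 animals, and treatments between groups of 7. The sizes overlapped, as for OLIG2, with 0.38 for HT minus OvH in hippocampus and 0.40 for hippocampus minus prefrontal cortex. With both treatments kept in the model and the animal as a block (limma, 42 libraries), 8 of the 12 region contrasts of member rows passed, where 49.9% of identifiers passed between hippocampus and occipital cortex, 42.6% between hippocampus and prefrontal cortex and 47.1% between the cortices. By direction, 2 of 4 rows were higher in hippocampus than in occipital cortex (27.4% of identifiers), 2 of 4 higher in hippocampus than in prefrontal cortex (20.6%), and 2 of 4 higher and 2 lower in occipital than in prefrontal cortex (19.7% higher). Such a region difference was thus common among all genes.

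Of these regions, the PDGFRA row was lowest in the occipital cortex, where it ran from 5578 to 8448 (7061 ± 810, SD, n = 14). It ran from 7132 to 14352 in the hippocampus (11308 ± 2246) and from 5676 to 13627 in the prefrontal cortex (10856 ± 2178). The hippocampus was above the occipital cortex in 13 of 14 animals (log2 difference 0.66, SE 0.09, limma adjusted p = 6.24e-08), and the occipital cortex was below the prefrontal cortex in 12 of 14 (-0.60, SE 0.09, limma adjusted p = 8.71e-07). Hippocampus and prefrontal cortex did not differ past the threshold (0.06, limma adjusted p = 0.605).

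The GPR17 row had the same order. Its means were 574 ± 202 in hippocampus, 490 ± 179 in prefrontal cortex and 327 ± 103 in occipital cortex (SD, n = 14). Hippocampus exceeded occipital cortex in 12 of 14 animals (0.80, SE 0.18, limma adjusted p = 0.000261), and occipital cortex was below prefrontal cortex in 12 of 14 (-0.54, SE 0.18, limma adjusted p = 0.0121). The difference between hippocampus and prefrontal cortex, 0.26, did not pass (limma adjusted p = 0.255).

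OLIG2 was lowest in the prefrontal cortex instead. Its means were 2049 ± 525 there, 2772 ± 820 in hippocampus and 2600 ± 476 in occipital cortex (SD, n = 14). The prefrontal cortex was below the hippocampus in 12 of 14 animals (hippocampus minus prefrontal 0.40, SE 0.11, limma adjusted p = 0.00406) and below the occipital cortex in 13 of 14 (occipital minus prefrontal 0.36, SE 0.11, limma adjusted p = 0.00897). Hippocampus and occipital cortex differed by 0.04 (limma adjusted p = 0.775).

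The row named SOX10 was also lowest in the prefrontal cortex, at 1274 ± 281 against 1811 ± 704 in hippocampus and 1679 ± 588 in occipital cortex (SD, n = 14). Hippocampus minus prefrontal was 0.45 (SE 0.15, limma adjusted p = 0.0117), and occipital minus prefrontal 0.36 (SE 0.15, limma adjusted p = 0.0418). The second of these did not pass without animals 32 and 40 (0.21, limma adjusted p = 0.239), nor with libraries scaled to equal totals (0.33, limma adjusted p = 0.074) or without the animal block (0.36, limma adjusted p = 0.0636).

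**Figure D4:**
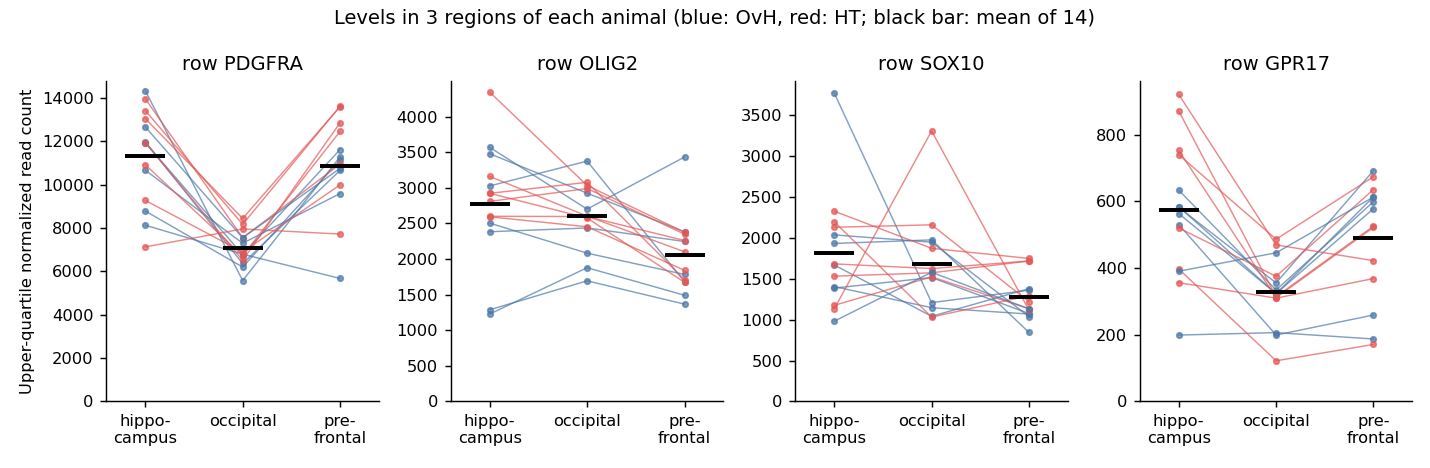
Upper-quartile normalized read count (vertical axes, from 0) of 4 rows in hippocampus, occipital cortex and prefrontal cortex; each line joins the regions of 1 animal, and the black bar is the mean of 14. The occipital cortex is the low point for PDGFRA (7061) and GPR17 (327), and the prefrontal cortex for OLIG2 (2049) and the row named SOX10 (1274).

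The other lineage lists also differed between these regions. Of 16 other precursor markers, 10 were lower and 0 higher in occipital than in prefrontal cortex (median log2 difference -0.43, beside -0.06 over all identifiers). In this contrast 47.1% of all identifiers passed in either direction, and 19.7% passed as higher. Among the 10 markers were XYLT1, which starts glycosaminoglycan chains, at -1.61 (limma adjusted p = 8.1e-06), and PCDH15 at -0.95 (limma adjusted p = 4.43e-07). PTPRZ1 was not among them, at -0.04 (limma adjusted p = 0.731). Between hippocampus and prefrontal cortex the 16 markers had no such lean, with 5 higher and 3 lower in hippocampus (median -0.14). Of 15 myelin rows, 7 were higher and 1 lower in occipital than in prefrontal cortex (median 0.41), and 12 were higher and 0 lower in hippocampus than in prefrontal cortex (median 0.69). In the latter contrast 42.6% of all identifiers passed, and 20.6% passed as higher in hippocampus. The 12 myelin rows included UGT8, which makes the myelin lipid galactosylceramide, at 0.81 (limma adjusted p = 0.000262). Of 10 rows of committed and newly formed oligodendrocytes, 3 were higher and 2 lower in occipital than in prefrontal cortex (median 0.02). The amygdala means, given with no test because the choice of rows used this difference, were 3548 ± 405 for PDGFRA, 2094 ± 652 for OLIG2, 2395 ± 1056 for SOX10, 359 ± 113 for GPR17 (SD, n = 14).

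The members did not vary between animals as one group. Of 28 correlations between 2 members within a region (treatment means removed, 14 animals), 2 passed by Pearson's r and 0 by Spearman's rho. In the amygdala the 10 values of r ran from -0.374 to 0.805. OLIG2 and SOX10 gave the highest, 0.805 (permutation p = 0.00134, adjusted 0.0375), with a rho of 0.723 (permutation p = 0.00689, adjusted 0.115) and an r of 0.591 without the 2 farthest animals. PDGFRA and GPR17 gave r = 0.808 in the prefrontal cortex (permutation p = 0.00333, adjusted 0.0466; rho 0.657, permutation p = 0.0164, adjusted 0.115), which fell to 0.28 without the 2 farthest animals and so rests on them. PDGFRA and OLIG2 had r = -0.629 in the hippocampus (permutation p = 0.012, adjusted 0.112; rho -0.635, permutation p = 0.0148, adjusted 0.115; r = -0.45 without the 2 farthest animals).

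An animal's level of GPR17 in the amygdala, occipital cortex or prefrontal cortex went with its level in the other two. Of 24 correlations of a row between 2 regions, 5 passed by Pearson's r and 1 by Spearman's rho, and 3 of the 5 were those of GPR17. Occipital and prefrontal GPR17 gave r = 0.856 (permutation p = 0.00151, adjusted 0.0152), rho = 0.785 (permutation p = 0.00181, adjusted 0.0434) and r = 0.705 without the 2 farthest animals. Amygdala and prefrontal GPR17 gave r = 0.85 (permutation p = 0.00113, adjusted 0.0152), rho = 0.679 (permutation p = 0.0105, adjusted 0.063) and r = 0.564 without the 2 farthest animals. Amygdala and occipital GPR17 gave r = 0.748 (permutation p = 0.00206, adjusted 0.0152; rho 0.675, permutation p = 0.0094, adjusted 0.063; r = 0.546 without the 2 farthest animals).

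Animals 32 and 40, one in each treatment group, had the 2 lowest GPR17 values in the amygdala (164 and 184) and in the prefrontal cortex (187 and 171). They also had the 2 lowest PDGFRA values in the prefrontal cortex (5676 and 7725) and in the hippocampus (8136 and 7132). In the occipital cortex their PDGFRA values, 6797 and 7963, were not low. These animals were picked out after their values were seen.

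OLIG2 gave r = 0.82 between hippocampus and occipital cortex (permutation p = 0.00411, adjusted 0.0197; rho 0.732, permutation p = 0.00907, adjusted 0.063; r = 0.648 without the 2 farthest animals). PDGFRA gave r = 0.756 between hippocampus and prefrontal cortex (permutation p = 0.00254, adjusted 0.0152; rho 0.578, permutation p = 0.0425, adjusted 0.146), and r = 0.393 without the 2 farthest animals, on which it rests. Amygdala SOX10 and the row of that name elsewhere gave r = 0.067 with hippocampus, 0.07 with occipital cortex and 0.009 with prefrontal cortex.

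**Figure D5:**
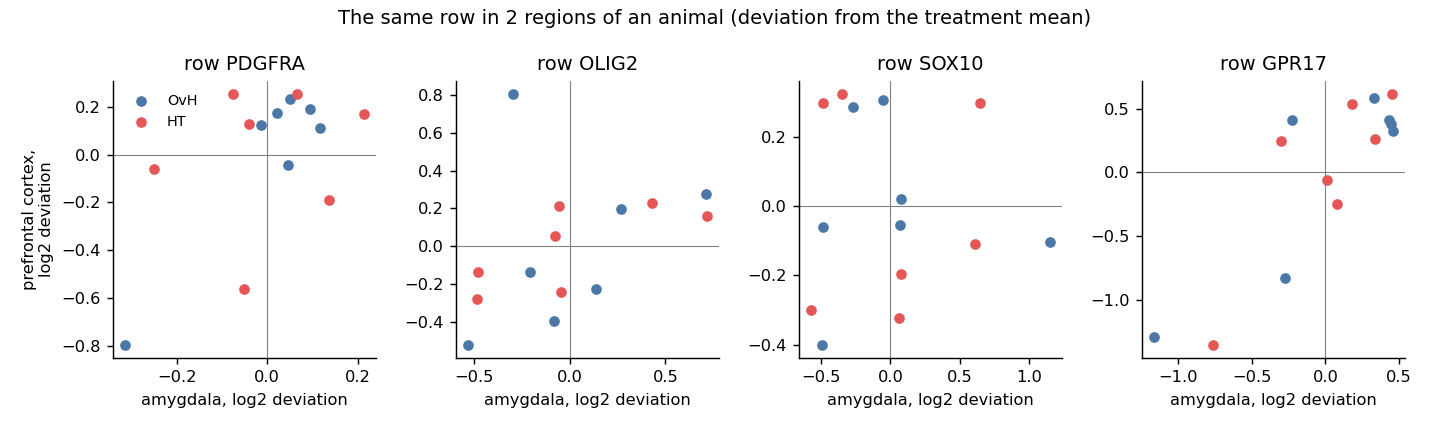
Log2 deviation of each animal from its treatment mean in amygdala (horizontal axes) against prefrontal cortex (vertical axes) for 4 rows; each point is an animal. GPR17 shows r = 0.85, with animals 32 and 40 at the low end of both axes, and the row named SOX10 shows r = 0.009.

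The genes whose levels ran most like each member, by Pearson's r over the 14 amygdala libraries with treatment means removed and with no test, were for SOX10 the myelin gene CNP (0.935), HOXD1 (0.933) and SEPTIN4 (0.929), of which CNP and SEPTIN4 are in the myelin list. For OLIG2 they were MLLT11 (0.962), TFG (0.958) and APP (0.929). For PDGFRA they were G3BP1 (0.887), PKN2 (0.881) and FERRY3 (0.872), for CSPG4 BRF1 (0.984), KDM4B (0.959) and PRR12 (0.95), and for GPR17 CYB5RL (0.922), UBE3B (0.922) and TRPV3 (0.912). Over the 42 other libraries, with the means of each region and treatment removed, OLIG2 ran most like CD22 (0.87), CERS2 (0.864), which makes the long-chain ceramides of myelin, and LAP3 (0.858). PDGFRA ran most like EFR3A (0.932), CDK14 (0.919) and ST8SIA3 (0.913), and GPR17 most like CLPB (0.884), RAB36 (0.883) and PCDH1 (0.868). The row named SOX10 ran most like CLTC (0.895), the clathrin heavy chain, DNM1L (0.876) and FBXO11 (0.873).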

How the data were processed

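The deposited table holds 1 value per identifier and library, a normalized read signal that the authors scaled by upper quartile. Per the submitters' processing notes, FastQC 0.1.1.2, Trimmomatic, STAR 2.7.3a, edgeR 3.28.0 and the build Mmul_10 were used, and the options are not given in the sources used here. Dividing each library by its smallest value gave whole reads for 100% of values within 0.01 read. Symbols came from a table of Ensembl names, which matched 15123 of 17807 identifiers. No sequence or genome position was used here.

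The estradiol comparison in each region was a limma fit (version 3.58.1, R 4.3.3, intensity trend, two-sided) on log2(value + 1), for identifiers with a mean of at least 10. Fold changes on this scale understate those of low genes. Adjusted p values are Benjamini-Hochberg over all identifiers tested, with a threshold of 0.05. Fits over several regions took the animal as a block, since the labels name the animal of each library (within-animal correlation 0.223). The fits were tested on simulated data. Correlations used 100000 permutations within treatment groups. edgeR 4.0.16 and DESeq2 1.42.0 were run on the recovered reads as alternatives.

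Beside the members, 15 lists of lineage, pathway and cell type genes were used. From a list, genes that passed were named, or else those with the smallest p, and for each member the 3 genes of highest r. The members and lists were chosen with earlier results of these data known. The alternatives were another pseudocount, other minimum means, equal totals, no trend, array weights, a myelin covariate, the animal block and leaving out each animal.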

Additional observations from a re-analysis of the deposited data

Results flagged for a closer look

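Among the 34 groups of 7 animals in which a member row was measured, 5 held a highest or lowest animal that stood far from the rest by Dixon's ratio of the gap to the next animal over the range of the group (95% critical value). Chance alone would flag about 1 in 20 groups. Of these 5 values, 3 came from animal 32 of the OvH group. In the amygdala its PDGFRA value was 3016.39, where the next was 3711.05, and its SOX10 value was 5496.36, where the next was 2604.49. In the prefrontal cortex its PDGFRA value was 5676.48, where the next was 9596.13. In the hippocampus OLIG2 in animal 40 (HT) was 4342.54, where the next was 3159.48, and the row named SOX10 in animal 30 (OvH) was 3770.97, where the next was 2035.83.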

How the results depend on the processing

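The count of members called in the amygdala, 0 of 5, was 0 under all alternatives except array weights and the myelin covariate, each with 1. With the replicate block (animal) over all regions 0 members and 1370 identifiers were called there, and the block changed no estradiol call of a member. Between regions, the call of the row named SOX10, occipital minus prefrontal, was lost with no replicate block. Called amygdala identifiers, 1112 in all, were 1732 with DESeq2, 3525 with array weights, 520 with the myelin covariate, and from 548 (without animal 33) to 2362 (without animal 32) when 1 animal was left out. They were 994 higher and 118 lower, against 618 and 1013 with equal totals and 675 and 343 with edgeR. Against 0 in the main fits, called identifiers were 1 with equal totals and 12 with DESeq2 in hippocampus, 1 with the replicate block and 0 to 1 with an animal left out in occipital cortex, and 1 with a pseudocount of 10, 6 with DESeq2 and 0 to 1 with an animal left out in prefrontal cortex. No member was called there under any alternative.

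Differences near 0 changed sign. In the hippocampus the row named SOX10 (-0.05) gave 0.12 with array weights, 0.14 with the myelin covariate, 0.011 without animals 30 and 43, 0.037 without animals 33 and 40, and -0.19 to 0.14 with 1 animal left out. There OLIG2 gave -0.012 with the myelin covariate, and PDGFRA -0.060 to 0.12 with 1 animal left out. With 1 animal left out GPR17 gave -0.035 to 0.30 in occipital and -0.29 to 0.16 in prefrontal cortex, and prefrontal OLIG2 -0.042 to 0.18. Prefrontal OLIG2 gave -0.0082 with edgeR and -0.013 with DESeq2. PDGFRA, hippocampus minus prefrontal, gave -0.0059 with equal totals, and OLIG2, hippocampus minus occipital, -0.012 without animals 32 and 40. The cause was not tested. The region contrasts passed were 8 of 12, and 7 with equal totals, with no replicate block and without animals 32 and 40. The fewest reads in a library were 85 for CSPG4 and 104 for GPR17, which limits the precision of these values.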
